A study of Mus musculus with 8 samples.

Results

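The receptors described here are class II odorant receptors (ORs) encoded in 3 ranges of numbered genes on mouse chromosome 11: Olfr311 to Olfr331, Olfr376 to Olfr412 and Olfr1371 to Olfr1396. Members were defined by gene number, as every transcript cluster of the array that names exactly 1 gene in these ranges and no pseudogene. The ranges were chosen with earlier results of these data known. This gave 51 genes of the 21789 single-gene clusters tested, with 15 genes in Olfr311 to Olfr331, 21 in Olfr376 to Olfr412 and 15 in Olfr1371 to Olfr1396. RefSeq lists 64 coding genes in these ranges. Of the 13 without a signal of their own, 12 are named only in rows that combine several genes, and Olfr1375 had no row in the annotation used.

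Total RNA from olfactory mucosa was hybridised to GeneChip Mouse Gene ST arrays, 1 mouse per array, from 4 knockout and 4 control littermates of mixed 129 x C57BL/6J background at postnatal day 1. The knockouts were OmpCre:Emx2 fl/fl, with both copies of Emx2 floxed and Cre driven from the Omp locus. Controls 1 to 3 were OmpCre:Emx2 fl/+, with 1 floxed copy, and control 4 carried Emx2 fl/fl but no Cre. Because Cre is targeted into the Omp locus, deletion is limited to mature olfactory sensory neurons (OSNs) and the Cre carriers, controls 1 to 3 included, have 1 intact copy of Omp fewer. Other cells of the mucosa keep Emx2. The paper reports that OmpCre recombined a reporter and the Lhx2 locus incompletely, so some mature OSNs may keep Emx2 as well. Litters are not given in the labels, replicate numbers are only names, and both sexes were used.

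An OSN expresses a single allele of a single OR gene, and the receptor protein sits on the cilia, where it binds odorants and signals through a G protein to adenylyl cyclase. The same receptor directs the axon to its glomerulus in the olfactory bulb. Class II receptors are the tetrapod type, and their genes lie in tandem clusters on many chromosomes, with close relatives next to each other. OR promoters commonly carry binding sites for homeodomain factors such as Lhx2 and Emx2, together with sites for the O/E (Ebf) family, so the comparison asked whether losing Emx2 from mature OSNs alters the abundance of OR mRNAs.

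The ranges differ in composition by the older MOR classification, which groups receptors by the similarity of their proteins. Olfr376 to Olfr412 holds 14 genes of subfamily MOR135 in an uninterrupted row from Olfr376 to Olfr397 among the measured genes, followed by Olfr398 (MOR157), 5 genes of MOR255 (Olfr399, Olfr401, Olfr402, Olfr410 and Olfr411) and Olfr412 (MOR127). Olfr1371 to Olfr1396 holds 10 genes of MOR256, 2 of MOR129 and 1 each of MOR276, MOR277 and MOR280. Olfr311 to Olfr331 is the most mixed, with 3 genes each of MOR275, MOR285 and MOR222, 2 each of MOR278 and MOR256, and 1 each of MOR102 and MOR107.

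Upstream sequence from RefSeq (GRCm38.p6), 250 bases before to 50 bases after the annotated gene start, was found for 43 of the 51 genes. In 30 of the 43 the annotated start is the start codon, so that window lies directly before the coding sequence and not at a transcription start. Each window was searched on both strands for the homeodomain core TAATNA and the O/E core CCCNNGGG. Overlapping matches were counted separately, and a core that reads the same on both strands was counted once. The first group shown are the 250 bases upstream of 3 MOR135 genes and 1 MOR255 gene whose annotated start is not a start codon. They are examples and do not stand for their subfamilies. Capitals mark TAATNA on either strand.
Olfr389, chr11:73780590-73780839, minus strand: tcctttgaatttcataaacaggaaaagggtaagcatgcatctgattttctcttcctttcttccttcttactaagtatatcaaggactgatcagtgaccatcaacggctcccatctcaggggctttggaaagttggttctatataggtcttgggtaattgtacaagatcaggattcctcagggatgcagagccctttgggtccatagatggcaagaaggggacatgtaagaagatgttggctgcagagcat
Olfr392, chr11:73816878-73817127, minus strand: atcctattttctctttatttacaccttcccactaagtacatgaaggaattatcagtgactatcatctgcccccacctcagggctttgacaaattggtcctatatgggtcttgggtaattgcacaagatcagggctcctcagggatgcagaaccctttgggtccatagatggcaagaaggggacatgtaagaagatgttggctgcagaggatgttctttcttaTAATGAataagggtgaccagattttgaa
Olfr378, chr11:73428478-73428727, minus strand: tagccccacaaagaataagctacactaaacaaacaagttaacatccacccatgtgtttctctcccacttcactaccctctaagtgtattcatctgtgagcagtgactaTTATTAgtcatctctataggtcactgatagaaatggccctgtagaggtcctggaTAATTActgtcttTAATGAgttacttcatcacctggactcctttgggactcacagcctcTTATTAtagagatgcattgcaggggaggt
Olfr399, chr11:74054779-74055028, minus strand: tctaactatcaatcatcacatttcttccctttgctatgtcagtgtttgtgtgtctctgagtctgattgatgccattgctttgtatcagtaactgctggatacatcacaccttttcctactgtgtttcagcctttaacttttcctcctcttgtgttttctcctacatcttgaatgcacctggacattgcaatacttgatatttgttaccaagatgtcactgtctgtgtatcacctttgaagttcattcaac

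Olfr378 carried 4 homeodomain cores in these 250 bases and Olfr392 carried 1, whereas Olfr389 and Olfr399 carried none there. The 1 core of the whole Olfr389 window, TAATGA, lies just after its annotated start, in sequence close to that around the Olfr392 core. Olfr389 and Olfr392, of the same subfamily, share an identical run of 57 bases within their windows, the longest run shared by any pair of the 43. The second group shows the last 30 bases before the start codon of 5 MOR135 genes, in which a homeodomain core lies at the same place, 24 bases before the codon. Below them stand the same 30 bases of Olfr398, Olfr410 and Olfr1393, from other subfamilies, whose signals are described with the results.
Olfr380, chr11:73454211-73454240, minus strand: gatttcTCATTAggatactggagaggaaga
Olfr382, chr11:73517198-73517227, minus strand: attttcTAATTAggatagtggagacaaaga
Olfr385, chr11:73589737-73589766, minus strand: attttcTCATTAggatactggagaataaga
Olfr384, chr11:73602552-73602581, plus strand: attttcTTATTAgaatactggagaataaga
Olfr393, chr11:73848124-73848153, minus strand: attttcTCATTAggatagtggagaagaaga
Olfr398, chr11:73984607-73984636, minus strand: tttcagcattcccatgggtacctgacctcc
Olfr410, chr11:74335230-74335259, minus strand: tcctccttgcatgcttctttaaaggaactc
Olfr1393, chr11:49280120-49280149, plus strand: gccttcgggtacttgttcaggtcaaaggct

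Among the 30 windows that end at a start codon, these 5 were the ones with a core at that place, and MOR135 contributed 9 of the 30. In the whole windows, all 12 MOR135 genes with a sequence held at least 1 homeodomain core, and 9 of them held 2 or more. The other members held at least 1 in 16 of 31 windows (51.6%) and 2 or more in 3 (9.68%). Of the 4 MOR255 windows among these, 2 held at least 1 core and 1 held 2 or more. Among 897 windows of other OR genes the shares were 65.9% and 35.9%, and among all 32851 windows taken from RefSeq they were 26.5% and 7.9%. The annotated start was a start codon in 655 of the 897 but in 1915 of the 32851. Shares over all windows thus come from windows that mostly lie elsewhere relative to the coding sequence. The O/E core was found in Olfr330 and Olfr398, 2 of 43 windows (4.65%), against 3.01% of the other OR windows and 13.7% of all windows. A match is a stretch of letters and not a measured binding site.

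The labels were checked with the targeted gene. Emx2, a homeodomain transcription factor, had log2 signals of 10.25, 10.14, 10.34 and 10.14 in knockouts 1 to 4, against 10.83, 10.74, 10.58 and 10.89 in controls 1 to 4. Every knockout lay below every control, and the difference was -0.55 ± 0.08 (SE, limma), a fold of 0.684, with an adjusted p of 0.201. The signal combines probes over all exons, so it does not separate the deleted exons from the rest. Omp, the marker of mature OSNs, had 12.76, 12.67, 12.91 and 12.60 in knockouts, against 13.43, 12.72, 12.56 and 13.29 in controls. Control 1, labelled as carrying OmpCre, was thus as high as control 4, which has no Cre. Lhx2 differed by 0.05 ± 0.08 (SE), less than its spread between mice.

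All arrays had medians of 8.64 to 8.68, and array medians are given here only as a scale for the signals below. Control 2 stood apart on the first principal component and in immune cell markers, which averaged 10.01 there and 9.0 to 9.23 in the other mice. Genes of the Y chromosome averaged 7.86 to 7.98 in knockout 3 and controls 2, 3 and 4, and 6.37 to 6.76 in knockouts 1, 2 and 4 and control 1, so this split runs partly along the groups. Mature OSN markers, 25 of 25 measured and 18 of them lower, averaged 11.66 to 11.89 in knockouts and 11.66 to 11.97 in controls. Of the markers, 5 were lower and 1 higher at an unadjusted limma p under 0.05, beside 2.55% and 2.62% of all clusters.

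No member passed an adjusted p of 0.05 by limma, where 0 of all 21789 clusters passed (0.0%). The smallest adjusted p among the members was 0.794, for Olfr389. At an unadjusted p under 0.05 by the same limma fit, 5 of the 51 receptors were lower in knockouts (Olfr389, Olfr398, Olfr1393, Olfr1383 and Olfr1396), 9.8% of the members beside 2.55% of all clusters. Olfr410 alone was higher at that level, beside 2.62% of all clusters. The other 833 class II receptors gave 13.0% lower by this measure (108 receptors, with 2 higher). The count of 5 was 2 without knockout 1 or knockout 4, 3 without control 4, 8 without control 3 and 11 without knockout 3. It was 1, Olfr389, both with signals scaled to mature OSN markers and with the Y-linked signal described above in the fit.

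Overlap between the groups was also counted, without a model. All knockouts lay below all controls for 3 of the 51 members, Olfr389, Olfr398 and Olfr1393, beside 1.48% of all clusters. They lay above all controls for 1 member, Olfr410, beside 1.62% of all clusters. Of the 833 other class II receptors, 36 lay below in this way and 0 above. Mean signals were lower in knockouts for 37 of the 51 (72.5%), with a median difference of -0.10 on the log2 scale. Among the other class II receptors 73.8% were lower, also with a median of -0.10, and among all clusters 48.6% were lower with a median of 0.00. The chromosome 11 receptors thus had a share and a median close to those of class II receptors elsewhere, and the difference between them was not tested. In bulk mucosa, fewer OSNs choosing a receptor, less of its mRNA per OSN and a smaller share of mature OSNs cannot be told apart. For conditional Emx2 deletion the paper reports unchanged numbers of mature and immature OSNs.

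**Figure D1:**
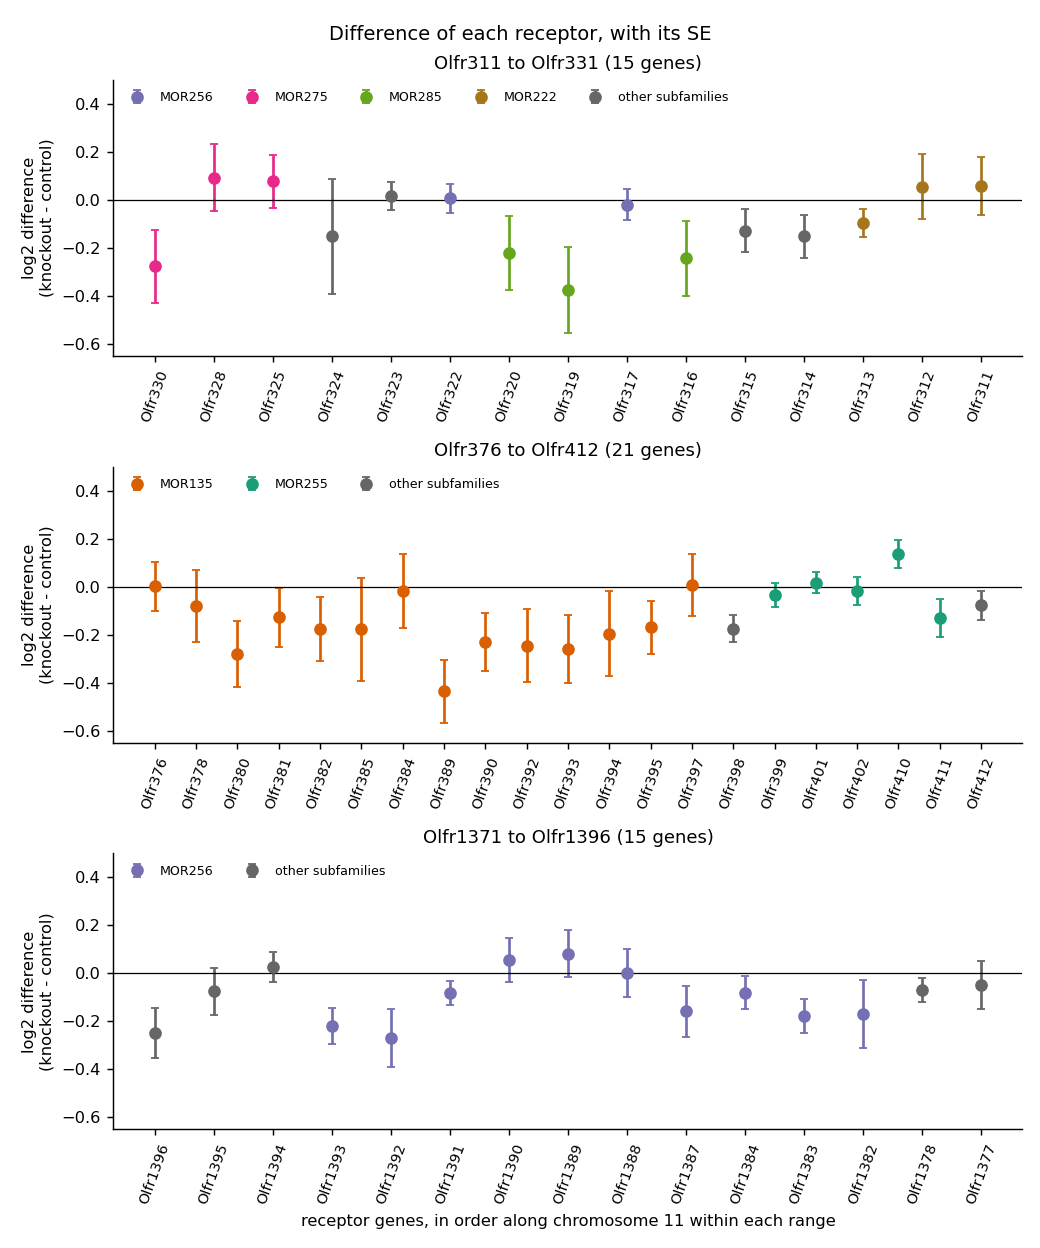
Difference in log2 signal, knockout minus control, of each of the 51 receptors (points, with bars for the SE of the limma fit), in gene order along chromosome 11 within each range and coloured by MOR subfamily. In the Olfr376 to Olfr412 panel 12 of 14 MOR135 points lie below 0, while the MOR255 points lie between -0.13 and 0.14.

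In Olfr376 to Olfr412, 17 of 21 receptors were lower, and the median difference was -0.13, or -8.7%. With the Y-linked signal in the fit and with scaling to mature OSN markers 12 of 21 were lower, with medians of -0.059 and -0.044. The range held 2 of the 5 receptors lower at an unadjusted limma p under 0.05, Olfr389 and Olfr398, and the 1 that was higher, Olfr410. The 2 were 9.52% of the range, beside 2.55% of all clusters and 13.0% of the other class II receptors. Of all clusters, 2.62% were higher at that level. Within the range, 12 of 14 MOR135 receptors were lower, with a median of -0.18 (-11.6%). Of the MOR255 receptors 3 of 5 were lower, with a median of -0.02 (-1.3%). The MOR135 median was -0.097 without knockout 4, -0.096 without control 4 and -0.282 without control 3, and that of the range was -0.079 without knockout 4 and -0.067 without control 4. The difference between the subfamilies was not tested.

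Olfr389, a MOR135 receptor, had signals of 8.20, 8.31, 8.40 and 8.17 in knockouts, against 8.99, 8.47, 8.46 and 8.91 in controls. The groups did not overlap, although knockout 3 came close to controls 2 and 3, and controls 1 and 4 carried most of the distance. The difference was -0.44 ± 0.13 (SE), a fold of 0.739 (adjusted p = 0.794, limma). It was the largest difference among the 51 with the values as deposited, but without control 1 (-0.344) and with array weights (-0.487) Olfr319 was further from 0, at -0.45 and -0.49, and without knockout 3 both were at -0.482. Olfr389 shares upstream sequence with Olfr392, a gene whose signals were 8.37, 8.69, 8.80 and 8.45 in knockouts and 9.06, 8.79, 8.42 and 9.02 in controls. For Olfr392 control 3 fell among the knockouts, and the difference was -0.25 ± 0.15 (SE).

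Of the 5 MOR135 receptors with a homeodomain core 24 bases before the codon, Olfr380 and Olfr393 are given first. Olfr380 had 7.78, 8.11, 7.89 and 7.59 in knockouts, against 8.27, 8.07, 7.82 and 8.34 in controls, a difference of -0.28 ± 0.14 (SE) with an adjusted p of 0.91 by limma. Olfr393, the brightest of the range, had 9.78, 9.94, 10.03 and 9.54 in knockouts, against 10.31, 9.98, 9.79 and 10.26 in controls, a difference of -0.26 ± 0.14 (SE) with an adjusted p of 0.91 by limma. In both, controls 1 and 4 lay above all knockouts and control 3 lay among them. Olfr382, the dimmest of the range, had 6.43, 6.26, 6.48 and 6.30 in knockouts, against 6.61, 6.59, 6.14 and 6.85 in controls, with control 3 below every knockout and a difference of -0.18 ± 0.13 (SE). Olfr385 was at -0.18 ± 0.22 (SE) and Olfr384 at -0.02 ± 0.16 (SE), each smaller than its error. The remaining MOR135 receptors ranged from -0.25 (Olfr392) to 0.01 (Olfr397), and both that were not lower, Olfr376 and Olfr397, were within 0.01 of 0.

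The same order of mice recurred over MOR135 as a whole. The median over its 14 receptors of the deviation from the control mean was -0.28, -0.08, 0.03 and -0.41 in knockouts 1 to 4, against 0.12, -0.10, -0.30 and 0.20 in controls 1 to 4. Control 3 was as low as knockout 1, and knockout 3 lay above controls 2 and 3, so the groups overlapped. Over the 833 other class II receptors the medians were -0.17, -0.05, 0.05 and -0.24 in knockouts 1 to 4. Controls 1 to 4 had 0.07, -0.05, -0.14 and 0.12, so knockout 4 was again lowest and control 4 highest. The averages of the mature OSN markers deviated by -0.14, -0.07, 0.09 and -0.06 in knockouts and 0.17, 0.01, -0.13 and 0.13 in controls, likewise with knockout 3 high and control 3 low. Their part in the MOR135 values was not tested beyond a scaling to these markers, which left a MOR135 median of -0.09 and moved the median of all clusters to 0.09.

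The MOR135 difference was also taken on each side of the Y-linked split. In controls, per-mouse MOR135 medians were 0.12 with low signal (control 1) and -0.10, -0.30 and 0.20 with high signal (controls 2 to 4). In knockouts they were 0.03 with high signal (knockout 3) and -0.28, -0.08 and -0.41 with low signal (knockouts 1, 2 and 4). Among the 4 mice with high Y-linked signal (knockout 3 and controls 2 to 4) the median difference of MOR135 was 0.06, and among the 4 with low signal (knockouts 1, 2 and 4 and control 1) it was -0.41. Over the 833 other class II receptors these values were 0.08 and -0.21. In each set of 4 mice, 1 genotype has 1 mouse, and adding the Y-linked signal to the fit gave a MOR135 median of -0.13.

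**Figure D2:**
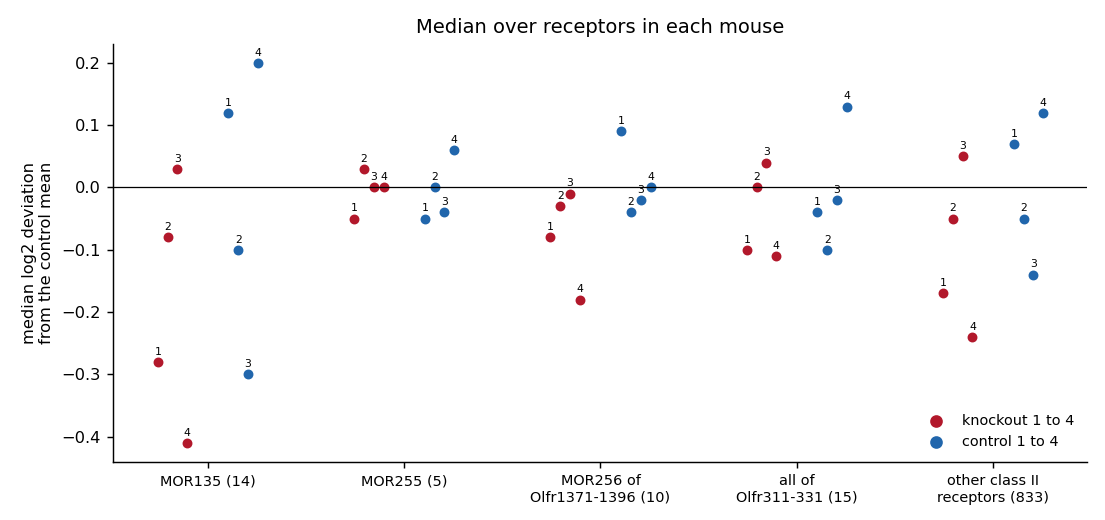
Median over the receptors of a set of each mouse's log2 deviation from the control mean, for knockouts (red, left) and controls (blue, right), with mouse numbers above the points and the number of receptors in brackets. MOR135 runs from -0.41 in knockout 4 to 0.20 in control 4 with control 3 at -0.30, while MOR255 stays between -0.05 and 0.06. Other class II receptors run from -0.24 in knockout 4 to 0.12 in control 4, with control 3 at -0.14.

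MOR255 receptors varied less between mice than MOR135 receptors. The median SD over the 5 MOR255 receptors was 0.073 in knockouts and 0.073 in controls. It was 0.217 in knockouts and 0.241 in controls over the MOR135 receptors. Other class II receptors had 0.183 in knockouts and 0.189 in controls, and all clusters had 0.084 and 0.096. Per-mouse medians of MOR255 were -0.05, 0.03, -0.00 and 0.00 in knockouts, against -0.05, 0.00, -0.04 and 0.06 in controls.

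Olfr410, a MOR255 receptor, had signals of 8.27, 8.31, 8.36 and 8.30 in knockouts, against 8.06, 8.26, 8.12 and 8.27 in controls. The lowest knockout was just above the highest control, with both at 8.27 after rounding. The difference was 0.14 ± 0.06 (SE), a fold of 1.10 (adjusted p = 0.91, limma), and leaving out any 1 knockout, control 1 or control 3 took its unadjusted p above 0.05. Olfr401 had 9.46, 9.57, 9.45 and 9.47 in knockouts, against 9.50, 9.44, 9.47 and 9.48 in controls, and its difference of 0.02 ± 0.04 (SE) was smaller than its error. Olfr411 was at -0.13 ± 0.08 (SE), and Olfr399 and Olfr402 were at -0.04 and -0.02.

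Between the subfamilies stands Olfr398, the only MOR157 receptor of the range. Its signals were 8.94, 8.89, 9.07 and 8.99 in knockouts, against 9.17, 9.08, 9.24 and 9.10 in controls, and the groups did not overlap. The difference was -0.18 ± 0.06 (SE), a fold of 0.886 (adjusted p = 0.876, limma). Its SD was 0.08 in knockouts and 0.07 in controls, and no mouse stood apart, in contrast to Olfr389. In the high and low Y-linked mice the difference was -0.07 and -0.23, and for Olfr389 it was -0.21 and -0.76.

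**Figure D3:**
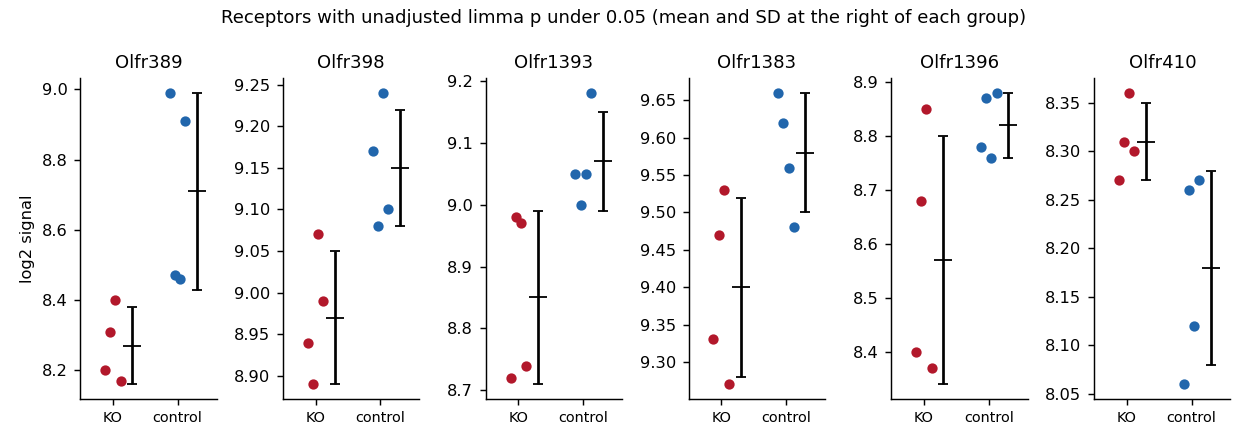
Log2 signals of the 6 receptors with an unadjusted limma p under 0.05, for 4 knockouts (KO, left, red) and 4 controls (right, blue), with the mean and SD beside each group and a separate axis per receptor that does not start at 0. The groups overlap for Olfr1383 and Olfr1396, and for Olfr410 they meet at 8.27.

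In Olfr1371 to Olfr1396, 11 of 15 receptors were lower and the median difference was -0.08, or -5.4%. The median was -0.038 with the Y-linked signal in the fit and 0.008 with scaling to mature OSN markers, where 6 of 15 were lower. The 3 receptors lower at an unadjusted p under 0.05 were Olfr1393, Olfr1383 and Olfr1396, and no receptor of the range was higher at that level. They were 3 of 15, beside 2.55% of all clusters and 13.0% of the other class II receptors. Of the 10 MOR256 receptors 7 were lower, with a median of -0.12 (-8.0%).

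Olfr1393, a MOR256 receptor, had signals of 8.72, 8.98, 8.97 and 8.74 in knockouts, against 9.05, 9.0, 9.05 and 9.18 in controls. Knockouts 2 and 3 came close to control 2 without overlap, while knockouts 1 and 4 lay well below. The difference was -0.22 ± 0.08 (SE), a fold of 0.859 (adjusted p = 0.891, limma). Olfr1393 is also named, with Olfr1392 and others, in 2 rows that combine several genes, and those rows differed by -0.20 and -0.21. Without knockout 1, knockout 4 or control 4 its unadjusted p was above 0.05.

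Its neighbour Olfr1392 had 8.0, 8.26, 8.40 and 8.04 in knockouts, against 8.73, 8.24, 8.41 and 8.39 in controls, with a difference of -0.27 ± 0.12 (SE, adjusted p = 0.91, limma). Control 1 was the highest, and controls 2 and 4 lay among the knockouts. Olfr1383, another MOR256 receptor, had 9.33, 9.47, 9.53 and 9.27 in knockouts, against 9.66, 9.62, 9.56 and 9.48 in controls, a difference of -0.18 ± 0.07 (SE, adjusted p = 0.91, limma). Control 4 lay between knockouts 2 and 3, so the groups overlapped, and without knockout 1, knockout 4 or any of controls 1 to 3 the unadjusted p was above 0.05.

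Olfr1396, the only MOR276 receptor, had 8.40, 8.68, 8.85 and 8.37 in knockouts, against 8.78, 8.87, 8.76 and 8.88 in controls. Knockout 3 lay above controls 1 and 3, and knockouts 1 and 4 were well below the rest. The difference was -0.25 ± 0.10 (SE, adjusted p = 0.91, limma), and leaving out knockout 1, knockout 4 or any 1 control took its unadjusted p above 0.05.

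Both positive extremes of this range were also MOR256 receptors. Olfr1389 had 8.24, 8.36, 8.59 and 8.42 in knockouts, against 8.53, 8.34, 8.24 and 8.17 in controls, a difference of 0.08 ± 0.10 (SE). Olfr1390 had 7.53, 7.85, 7.57 and 7.54 in knockouts, against 7.67, 7.38, 7.62 and 7.59 in controls, a difference of 0.06 ± 0.09 (SE). Neither exceeded its error, and the sign of Olfr1390 turned without knockout 2 (-0.021), without control 2 (-0.007) and with the Y-linked signal in the fit (-0.002). Olfr1395, the brightest gene of the range, and Olfr1378, the dimmest, each differed by -0.07, with an SE of 0.10 for Olfr1395 and 0.05 for Olfr1378.

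Per mouse, the medians over the 15 receptors were -0.09, -0.03, -0.00 and -0.16 in knockouts, against -0.01, -0.01, -0.03 and 0.06 in controls. Knockouts 1 and 4 were the lowest of the 8 mice, and knockouts 2 and 3 fell among the controls. Control 3, low for MOR135, was near 0 here.

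Olfr311 to Olfr331 gave no receptor at an unadjusted limma p under 0.05 in either direction. Over all clusters 2.55% were lower and 2.62% higher at that level, and 13.0% of the other class II receptors were lower. The median difference of the range was -0.10, or -6.5%, and 9 of 15 receptors were lower. This median was -0.021 over the receptors named in no row that combines several genes, -0.016 with the Y-linked signal in the fit and -0.009 with scaling to mature OSN markers. It was -0.051 without knockout 3, -0.061 without knockout 4, -0.049 without control 3 and -0.054 without control 4. The 3 MOR285 receptors were all lower, with a median of -0.24 (-15.5%), whereas 2 of 3 in both MOR275 and MOR222 were higher.

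Olfr319 is a MOR285 receptor. Its signals were 8.45, 8.63, 8.88 and 8.31 in knockouts, against 8.73, 9.01, 8.64 and 9.41 in controls, a difference of -0.38 ± 0.18 (SE, adjusted p = 0.91, limma). Control 4 alone lay far above the rest, and knockout 3 was above controls 1 and 3. The difference was -0.223 without control 4 and -0.179 with the Y-linked signal in the fit. Its relatives Olfr316 and Olfr320 differed by -0.24 ± 0.16 and -0.22 ± 0.15 (SE). A row that names Olfr316, Olfr318, Olfr319 and Olfr320 together differed by -0.40, and signals of such close relatives cannot be told apart here. The per-mouse medians of MOR285 were -0.43, -0.16, -0.06 and -0.64 in knockouts, against -0.14, -0.05, -0.02 and 0.26 in controls, with knockouts 2 and 3 near the controls.

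The MOR275 receptors did not share a direction. Olfr330, the brightest of the range, had 9.08, 8.81, 9.22 and 8.91 in knockouts, against 9.56, 8.93, 9.14 and 9.51 in controls, a difference of -0.28 ± 0.15 (SE). Olfr328 had 8.90, 8.70, 9.10 and 8.65 in knockouts, against 8.91, 8.37, 8.90 and 8.80 in controls, a difference of 0.09 ± 0.14 (SE). Olfr325 differed by 0.08 ± 0.11 (SE), and the 2 rows that combine these genes with Olfr329, Olfr331 and Olfr224 differed by -0.00 and 0.01.

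Differences in the rest of the range ran from -0.15 to 0.06. Olfr314, of MOR278, had 9.04, 9.09, 9.04 and 8.74 in knockouts, against 9.07, 9.01, 9.16 and 9.28 in controls, a difference of -0.15 ± 0.09 (SE), and knockout 4 was far below its group. Olfr313, of MOR222, had 8.16, 8.09, 8.26 and 8.22 in knockouts, against 8.26, 8.22, 8.22 and 8.41 in controls, a difference of -0.10 ± 0.06 (SE). Olfr323, the dimmest gene of the range and the only MOR107 receptor, differed by 0.02 ± 0.06 (SE). Olfr324, of MOR102, was the most variable member of all, with an SD of 0.43 in knockouts and 0.38 in controls.

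**Figure D4:**
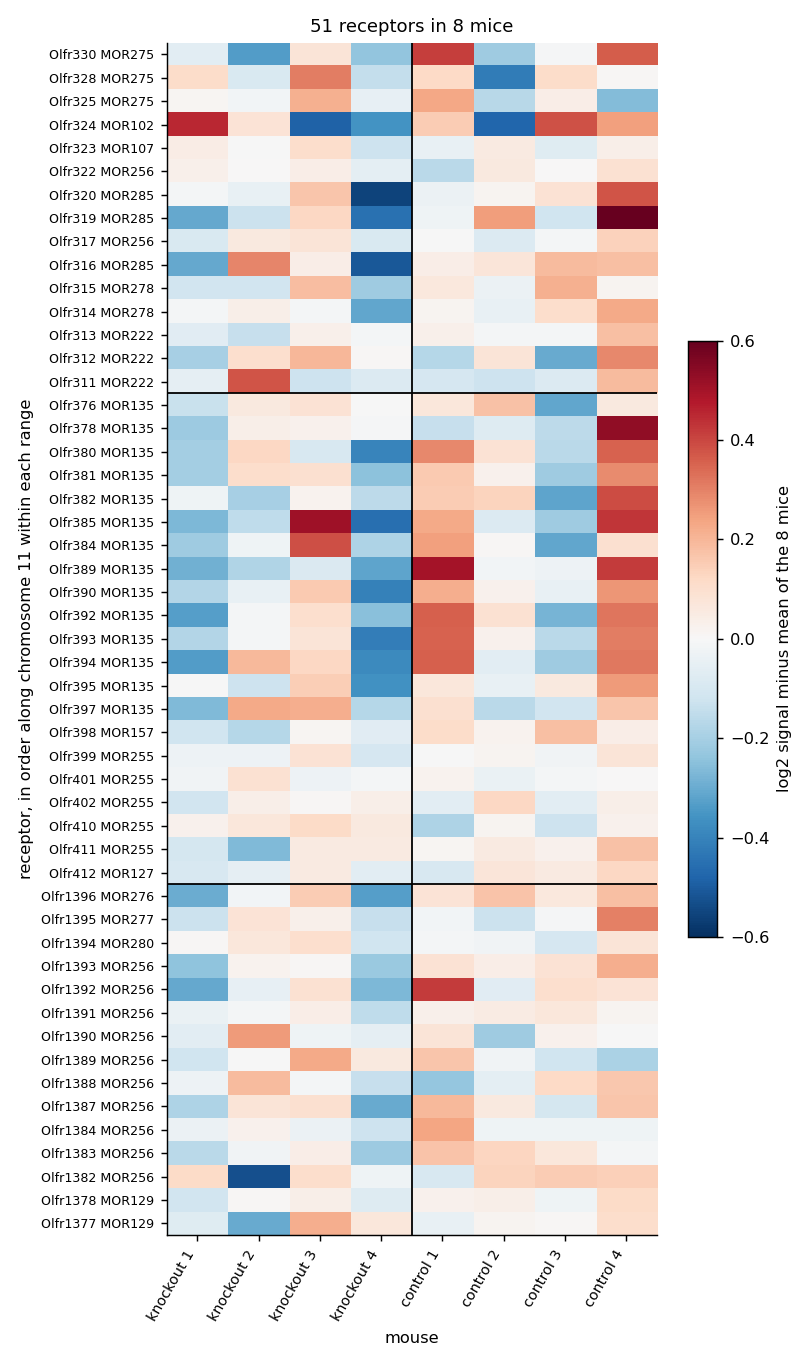
Log2 signal of each of the 51 receptors (rows, by range and gene order, with the MOR subfamily) minus its mean over the 8 mice (columns, knockouts left of controls, red above and blue below the mean). Knockouts 1 and 4 are blue and controls 1 and 4 red through most of the MOR135 rows, and control 3 is blue in most of them.

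Near-identical genes limit how far signals belong to 1 receptor. Of the 51, 16 are also named in some of 13 rows that combine several genes, and 14 of these 16 were lower, with a median of -0.21. Of the 35 named in no such row 23 were lower, with a median of -0.08. The 13 combined rows themselves ran from -0.40 to 0.01, and 12 of them were lower, among them 4 rows for Olfr1371, Olfr1373 and their relatives, at -0.22 to -0.36. The Olfr1382 row of its own was at -0.17 ± 0.14 (SE).

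Mean signal and difference had a Spearman rho of -0.4 over the 51 genes, a description in which all points share the same 8 arrays, and signals of different probes do not order mRNA amounts. Within Olfr311 to Olfr331, Olfr376 to Olfr412 and Olfr1371 to Olfr1396 the rho was -0.67, -0.31 and -0.29. Only 5 of the 51 had a mean signal above the median of all clusters. The number of homeodomain cores did not order the differences, since the median was -0.08 over the 15 receptors with none, -0.16 over 16 with 1 and -0.105 over 12 with 2 or more.

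Of 26 regulators of OR choice and OR promoters, 25 were measured, with 13 lower and 12 higher. At an unadjusted limma p under 0.05, 3 were lower, beside 2.55% of all clusters, and 1 was higher, beside 2.62% of all clusters. The 3 include Emx2, the deleted gene itself, and the other lower ones were Rtp2, which carries ORs to the cell surface, at -0.26 ± 0.09 (SE), and Atf5, the transcription factor of the OR feedback signal, at -0.15 ± 0.06 (SE). Cbx5, the heterochromatin protein HP1 alpha, was higher by 0.14 ± 0.05 (SE). Of these, Emx2 had the smallest adjusted p by limma, and the other 3 were at 0.91.

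**Figure D5:**
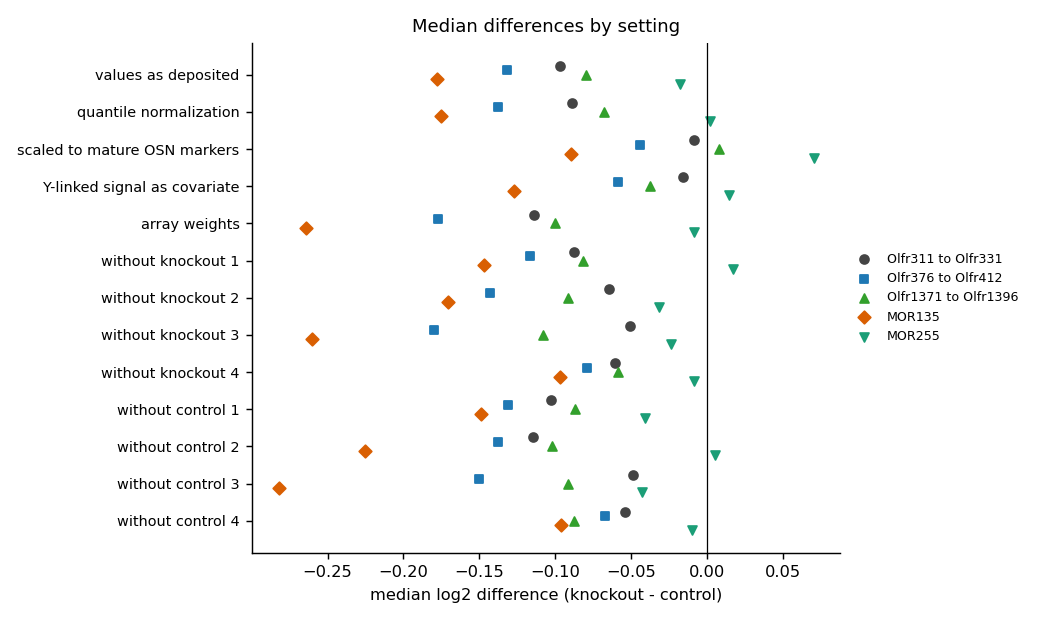
Median log2 difference, knockout minus control, of the 3 ranges and of MOR135 and MOR255 (symbols) under settings of the analysis (rows). Not drawn are the filter at the median signal, the mean over rows of a gene, the methods' t-test and the members in no combined row. The MOR135 median runs from -0.282 to -0.09 and stays below 0, and the Olfr1371 to Olfr1396 median is above 0 (0.008) when values are scaled to mature OSN markers. The MOR255 median is above 0 with that scaling (0.07), quantile normalization (0.002), the Y-linked covariate (0.014), and without knockout 1 (0.017) or control 2 (0.005).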

How the data were processed

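The authors hybridised RNA from 4 knockout and 4 control olfactory mucosae to the arrays and summarised them per transcript cluster. The deposited values are log2 signals of 35557 clusters (2.65 to 14.9). Affymetrix Expression Console is the tool in the submitters' processing notes, and the normalization algorithm and genome build are not given in the sources used here. No value was transformed again, and arrays give no counts, so their number limits the precision.

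Symbols of the platform annotation were updated through Entrez identifiers with the RefSeq table of GRCm38.p6 (21698 of 21789 single-symbol clusters matched, 0 symbols changed). Clusters with several symbols (1621) or none (12147) were not tested. Groups were compared with limma 3.58.1 in R 4.3.3 (lmFit and eBayes, two-sided, Benjamini-Hochberg over 21789 clusters). The script was run on simulated arrays with independent noise per cluster, a check of the code and not of its power for the differences here. Named genes were Emx2, Lhx2 and Omp, members with p under 0.05 and, per range, the 4 smallest p, the 2 largest differences each way and the brightest and dimmest gene, plus regulators with p under 0.05. Olfr316, Olfr320, Olfr324, Olfr384, Olfr385, Olfr392, Olfr399, Olfr402, Olfr411, Olfr376, Olfr397 and Olfr1382 were named after their values were seen. Members and lists were chosen with earlier results of these data known. Lists are described by counts and medians. Alternatives were quantile normalization, scaling to mature OSN markers, a filter at the median signal, the methods' t-test, the Y-linked signal as covariate, array weights, a mean over rows of a gene, and leaving out each mouse.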

Additional observations from a re-analysis of the deposited data

Results flagged for a closer look

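A Dixon test over the 62 groups of 4 mice of the named genes and sets marked 3 values, where chance marks about 1 group in 20. Olfr314 had 8.74 in knockout 4, against 9.04 to 9.09 in the other knockouts. Olfr1390 had 7.85 in knockout 2, against 7.53 to 7.57 in the other knockouts. Cbx5 had 11.74 in control 2, the mouse with the high immune markers, against 11.89 to 11.90 in the other controls. No cause was tested for any of the 3.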

How the results depend on the processing

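No cluster passed an adjusted p of 0.05 by limma with the values as deposited (555 lower and 571 higher at an unadjusted p under 0.05). With scaling to mature OSN markers 2 passed, with only clusters above the median signal 2, with array weights 5, and with a mouse left out 0 to 1 (1 without control 3). The count of members lower at p under 0.05, 5 as deposited, was 1 with that scaling, 1 with that filter (5 members tested, none in Olfr311 to Olfr331, which gave no median there), 1 with the Y-linked covariate and 11 with array weights, and 2 to 11 with a mouse left out (2 without knockout 1 or knockout 4, 11 without knockout 3, 8 without control 3, 3 without control 4). The count higher, 1, was 0 with the scaling, the filter and array weights, and 0 to 1 with a mouse left out. Olfr389 stayed under 0.05 in every setting that tested it. The median of Olfr1371 to Olfr1396 was 0.008 and of MOR255 0.07 with the OSN scaling, which moved all clusters to a median of 0.0905. The MOR255 median was also above 0 with quantile normalization (0.002), the Y-linked covariate (0.014) and without knockout 1 (0.017) or control 2 (0.005). With a mouse left out, the medians ran from -0.115 to -0.049 in Olfr311 to Olfr331 (nearest 0 without knockout 3 or 4 or control 3 or 4), -0.18 to -0.067 in Olfr376 to Olfr412 (nearest 0 without knockout 4 or control 4) and -0.282 to -0.096 in MOR135. Signs turned for Olfr1395 (0.013 with the scaling), Olfr1378 (0.018 with the scaling), Olfr401 (-0.009 with the Y-linked covariate), Olfr1390 (-0.002 with that covariate) and Olfr323 (-0.013 with array weights). With a mouse left out, differences that turned ran from -0.13 to 0.013 (Olfr1395, above 0 without control 4), -0.011 to 0.029 (Olfr401, below 0 without knockout 2), -0.021 to 0.092 (Olfr1390, below 0 without knockout 2 or control 2), -0.018 to 0.059 (Olfr323, below 0 without knockout 3 or control 3), -0.031 to 0.099 (Lhx2, below 0 without knockout 3) and -0.032 to 0.154 (Olfr328, below 0 without control 2). The causes were not tested. MOR135, MOR255 and members in no combined row were settings added after seeing the data. No paired analysis was possible because the replicate numbers were given in accession order and litters are not in the labels.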
